A study of Mus musculus with 9 samples.

Results

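Mesothelial marker genes were followed in cultured mouse adipose-derived stem cells (ASCs) from different fat depots. The 9 genes Msln, Wt1, Upk3b, Upk1b, Lrrn4, Muc16, Bnc1, Cldn15 and Gpm6a were taken by name from the 54532 genes of the count table, and each name matched a single row. The cells came from subcutaneous (Sub-ASC), abdominal (Ab-ASC) or perivascular (PVASC) adipose tissue of C57BL/6 mice, with 3 libraries per group. The labels give no genetic change or drug for any group, and all were grown in a serum-containing stem cell medium with leukemia inhibitory factor and FGF. The sources used here do not give the age and sex of the donor mice, the passage of each culture beyond a range, or whether cultures of a group came from separate animals, so p-values measure the spread between these libraries, which may be technical. Between 20524173 and 29881036 reads were counted per library. Counts of Ab-ASC replicate 1 stood further from the other Ab-ASC libraries (chi-square per degree of freedom 29.3 and 18.5) than those did from each other (4.26), and the marker genes whose calls change without it are named with their values.

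The mesothelium is a sheet of epithelial-like cells of mesodermal origin that covers the organs and walls of the peritoneal, pleural and pericardial cavities. It lies over visceral fat, whereas subcutaneous fat has no such cover. Its cells combine keratins, cell junctions and a glycoprotein-coated surface with some mesenchymal traits, and in culture they can lose their epithelial features. The genes studied cover several of these traits. Msln and Muc16 encode surface glycoproteins that bind each other, Upk3b and Upk1b encode uroplakins, Lrrn4 and Gpm6a encode membrane proteins, and Cldn15 encodes a tight junction protein. Wt1 and Bnc1 encode zinc finger proteins of the nucleus.

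In the abdominal cultures, Wt1, Upk1b, Lrrn4, Upk3b, Msln and Bnc1 were expressed, and all 6 were near or at 0 in the subcutaneous cultures. PVASCs expressed the same 6 genes at levels between those of the other groups, and the shortfall against Ab-ASCs ranged from 1.61-fold for Upk1b to 14.7-fold for Msln. Cldn15 and Gpm6a followed another order, being highest in PVASCs, and Muc16 had at most 4 reads in any library. With an adjusted p-value under 0.05 in edgeR's quasi-likelihood test, 8 of the 9 genes rose in PVASCs against Sub-ASCs, a comparison in which 34.7% of all 16526 genes tested were higher and 35.7% lower. Against Sub-ASCs, 6 of the 9 were higher in Ab-ASCs, where 37.0% of all genes were higher and 38.3% lower. Between PVASCs and Ab-ASCs, 6 of the 9 were lower and 2 higher in PVASCs, with 32.1% of all genes lower and 24.7% higher. Muc16 did not pass the filter on low counts. Msln, Upk3b, Upk1b, Lrrn4 and Bnc1 had at most 3 reads in every Sub-ASC library and passed it through the other groups, so their place among the genes tested already required a difference from Sub-ASCs. In bulk libraries, fewer cells that express a gene and less of its RNA per cell cannot be told apart.

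**Figure D1:**
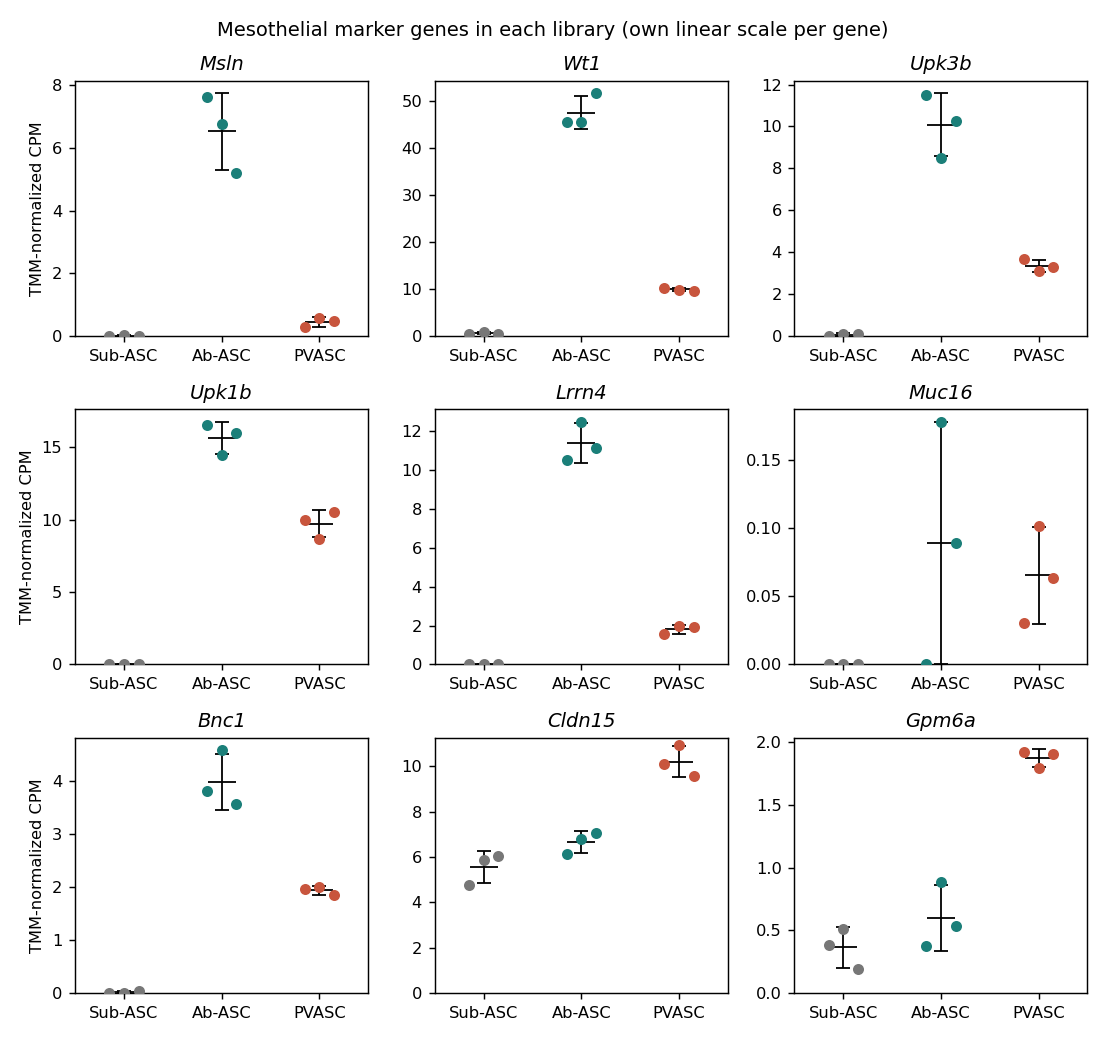
Expression of the 9 genes in CPM (reads scaled by TMM-normalized library size; vertical axes, linear, separate for each gene and starting at 0) in Sub-ASC, Ab-ASC and PVASC libraries. Points are libraries, and bars give the mean and SD of 3 libraries. Msln, Wt1, Upk3b, Upk1b, Lrrn4 and Bnc1 are highest in Ab-ASCs and lowest in Sub-ASCs, Cldn15 and Gpm6a are highest in PVASCs, and Muc16 stays under 0.2 CPM throughout.

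The stretches upstream of the annotated starts are shown for Upk3b, Lrrn4 and Bnc1, which shared the order of groups, and for Cldn15, which did not. Each holds the 250 bases before a RefSeq start on GRCm38.p6, 5′ to 3′ on the strand of the gene. The Upk3b start is the start of the gene listed in the table. Those of Lrrn4 and Bnc1 lie inside and just outside the listed span of these genes, so the Lrrn4 window overlaps the end of that span. The Cldn15 window lies inside the listed span before a later start, and the Bnc1 window lies within the listed span of an antisense pseudogene. Capitals mark the GC box GGGCGG, bound by SP1-type factors, and the TEAD core GGAATG, bound by the TEAD partners of YAP, on either strand.
Upk3b, chr5:136038246-136038495, plus strand: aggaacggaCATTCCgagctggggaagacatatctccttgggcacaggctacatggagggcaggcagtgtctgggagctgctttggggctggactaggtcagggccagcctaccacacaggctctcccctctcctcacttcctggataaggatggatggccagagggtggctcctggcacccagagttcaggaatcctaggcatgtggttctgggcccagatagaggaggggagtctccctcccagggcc
Lrrn4, chr2:132880863-132881112, minus strand: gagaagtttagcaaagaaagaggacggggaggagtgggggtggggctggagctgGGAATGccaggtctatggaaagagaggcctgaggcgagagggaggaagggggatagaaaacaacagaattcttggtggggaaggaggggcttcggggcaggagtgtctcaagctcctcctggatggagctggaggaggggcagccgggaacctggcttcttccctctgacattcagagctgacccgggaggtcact
Bnc1, chr7:81992300-81992549, minus strand: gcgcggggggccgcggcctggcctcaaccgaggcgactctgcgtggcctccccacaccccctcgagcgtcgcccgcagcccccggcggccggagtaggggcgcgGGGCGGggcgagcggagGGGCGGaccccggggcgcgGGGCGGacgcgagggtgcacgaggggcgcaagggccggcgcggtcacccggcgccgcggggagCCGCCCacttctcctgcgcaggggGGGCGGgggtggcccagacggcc
Cldn15, chr5:136967619-136967868, plus strand: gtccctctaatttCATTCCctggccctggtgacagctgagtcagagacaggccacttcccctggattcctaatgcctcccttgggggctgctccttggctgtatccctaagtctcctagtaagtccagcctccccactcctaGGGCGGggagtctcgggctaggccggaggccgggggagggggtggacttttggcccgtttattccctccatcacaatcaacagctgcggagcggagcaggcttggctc

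These windows differed in composition although 3 of the genes shared their order of expression. G and C made up 83.6% of the Bnc1 window, with 39 CpG and 5 GC boxes, against a median of 52.4% and 6 CpG over all 32851 RefSeq windows of this length. The Upk3b and Lrrn4 windows had 60.8% and 59.2% G and C, 2 and 5 CpG, and no GC box. The TEAD core was found in the windows of Upk3b, Lrrn4 and Cldn15, and it is present in 12.6% of all windows. Of the 2 Gpm6a windows, only the first held it, at chr8:54779184-54779433, far upstream of the listed gene start at 54954843. The second Gpm6a window, just before that start, did not. GC boxes are present in 32.7% of them. No WT1-type element (GCGGGGGCG, in 2.57% of all windows, or GCGTGGGAG, in 0.405%) was in any window of these genes, and neither was AGATAA (9.99%). Both strands were searched, and a TATAAA (12.4% of all windows) was in the second Gpm6a window alone. The Muc16 window held none of these letters. RefSeq windows matched 6 of the 9 genes, and Msln, Upk1b and Wt1 had no entry.

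Wt1 (ENSMUSG00000016458, plus strand of chromosome 2, 105126529 to 105173616 on GRCm38) was counted with 847, 1025 and 1160 reads in Ab-ASCs. In PVASCs it had 336, 292 and 301 reads, and in Sub-ASCs 12, 23 and 10 reads. The 3 groups did not overlap at any point, and Sub-ASCs still had reads in every library. In CPM, that is, reads scaled by the TMM-normalized library size, levels were 47.6 ± 3.58 in Ab-ASCs, 9.91 ± 0.349 in PVASCs and 0.600 ± 0.271 in Sub-ASCs (SD, n = 3). Against Sub-ASCs, Wt1 had a log2 fold change of 6.30 in Ab-ASCs (standard error 0.16, adjusted p = 3.73e-12) and of 4.03 in PVASCs (standard error 0.18, adjusted p = 7.21e-10). PVASCs were 4.80-fold lower than Ab-ASCs (adjusted p = 5.77e-09). Wt1 encodes a zinc finger transcription factor needed for the development of the mesothelium and known from progenitors of visceral fat.

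Bnc1 (ENSMUSG00000025105, minus strand of chromosome 7, 81966672 to 81992292) had 71, 103 and 80 reads in Ab-ASCs and 64, 59 and 58 in PVASCs. A single read was counted over the Sub-ASC libraries. Expression was 3.99 ± 0.528 CPM in Ab-ASCs and 1.93 ± 0.0799 CPM in PVASCs (SD, n = 3), without overlap. This gene, which encodes basonuclin 1, was 2.06-fold lower in PVASCs than in Ab-ASCs (adjusted p = 0.000368). With 1 read in the second group, the ratio of summed reads against Sub-ASCs was 300 for Ab-ASCs, with an exact 95% interval of 53.3 to 11900, and 145 for PVASCs, with 25.7 to 5750. These intervals cover counting error only. Without Sub-ASC replicate 3, which holds that read, the fitted log2 fold changes moved from 7.78 to 9.68 and from 6.74 to 8.64.

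Msln (ENSMUSG00000063011, minus strand of chromosome 17, 25748614 to 25754327) showed the widest gap between the groups that expressed it. The Ab-ASC libraries had 142, 152 and 117 reads, and the PVASC libraries 9, 17 and 15. Only Sub-ASC replicate 2 had a read, and it had 1. Expression of this gene for mesothelin, a surface protein anchored in the outer membrane leaflet, was 6.53 ± 1.22 CPM in Ab-ASCs and 0.443 ± 0.153 CPM in PVASCs (SD, n = 3). PVASCs were thus 14.7-fold lower (log2 fold change -3.88, standard error 0.26, adjusted p = 1.37e-07). Against Sub-ASCs, the ratio of summed reads was 485 for Ab-ASCs (exact 95% interval 86.5 to 19200) and 32.8 for PVASCs (5.57 to 1330). Without Sub-ASC replicate 2, the fitted log2 fold changes moved from 8.48 to 10.4 and from 4.61 to 6.52. Msln did not pass the filter when PVASCs and Sub-ASCs alone were fitted.

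Muc16 (ENSMUSG00000109564, minus strand of chromosome 9, 18495455 to 18674530) encodes the mucin that mesothelin binds. It had 0, 4 and 2 reads in Ab-ASCs, 1, 3 and 2 in PVASCs and 0 in each Sub-ASC library. With 78 exons in its longest transcript and a listed length of 26350 bases, its level per length was the lowest of the 9 genes, at 0.00320 FPKM in Ab-ASCs. At this depth no difference between the groups was detectable, and with so few reads no fold is reported.

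The 2 uroplakin genes were expressed in the same groups but at different ratios. Upk1b (ENSMUSG00000049436, minus strand of chromosome 16, 38773184 to 38800328), a tetraspanin gene, had 309, 325 and 359 reads in Ab-ASCs and 327, 256 and 332 in PVASCs. No read was counted on it in the Sub-ASC libraries, where 3 reads would correspond to 0.114 to 0.129 CPM. At 15.7 ± 1.11 CPM in Ab-ASCs and 9.74 ± 0.967 CPM in PVASCs (SD, n = 3), Upk1b was at least 130-fold and at least 81.0-fold higher than in Sub-ASCs, with 3 reads assumed in each Sub-ASC library. Its difference between PVASCs and Ab-ASCs was the smallest of the 6 genes that were lower in PVASCs (1.61-fold, log2 fold change -0.68, standard error 0.11, adjusted p = 0.000369).

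Upk3b (ENSMUSG00000042985, plus strand of chromosome 5, 136038496 to 136046487) had 214, 191 and 230 reads in Ab-ASCs, 120, 91 and 104 in PVASCs and 0, 3 and 2 in Sub-ASCs. The groups did not overlap. Expression was 10.1 ± 1.51 CPM in Ab-ASCs and 3.35 ± 0.295 CPM in PVASCs (SD, n = 3), a 2.99-fold difference (adjusted p = 4.95e-06). The log2 fold change against Sub-ASCs was 7.13 for Ab-ASCs (standard error 0.32, adjusted p = 6.06e-10) and 5.56 for PVASCs (standard error 0.37, adjusted p = 3.58e-08). Without Sub-ASC replicate 2, they were 7.80 and 6.22. Upk3b encodes a uroplakin of mesothelium and bladder lining.

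Lrrn4 (ENSMUSG00000043110, minus strand of chromosome 2, 132868305 to 132880891) had 196, 281 and 250 reads in Ab-ASCs and 51, 59 and 60 in PVASCs, and no read in Sub-ASCs. It encodes a leucine-rich repeat membrane protein used as a marker of lung mesothelium. The levels of 11.4 ± 1.01 CPM and 1.82 ± 0.233 CPM (SD, n = 3) differed 6.26-fold between Ab-ASCs and PVASCs (adjusted p = 1.48e-07). Set against 3 reads in each Sub-ASC library, Lrrn4 was at least 94.6-fold higher in Ab-ASCs and at least 15.1-fold higher in PVASCs.

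Cldn15 and Gpm6a were highest in PVASCs. Cldn15 (ENSMUSG00000001739, plus strand of chromosome 5, 136966616 to 136975858), whose claudin forms pores in tight junctions, had 331, 323 and 301 reads in PVASCs, 114, 153 and 158 in Ab-ASCs and 111, 149 and 159 in Sub-ASCs. Unlike the 6 genes above, it was well expressed in Sub-ASCs. In CPM the means were 10.2 ± 0.692, 6.66 ± 0.479 and 5.56 ± 0.697 (SD, n = 3). PVASCs were 1.83-fold higher than Sub-ASCs (adjusted p = 1.72e-05) and 1.53-fold higher than Ab-ASCs (adjusted p = 0.000599). Between Ab-ASCs and Sub-ASCs, the difference did not pass the threshold (log2 fold change 0.26, approximate 95% interval 0.02 to 0.50, adjusted p = 0.0698). The lowest Ab-ASC library still lay just above the highest Sub-ASC library.

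Gpm6a (ENSMUSG00000031517, plus strand of chromosome 8, 54954843 to 55060871) encodes a membrane glycoprotein of the proteolipid family that is abundant in neurons. It had 63, 53 and 60 reads in PVASCs, 7, 20 and 12 in Ab-ASCs and 9, 13 and 5 in Sub-ASCs. The PVASC libraries stood above all others, and the other groups overlapped. Expression was 1.88 ± 0.0703 CPM in PVASCs, 0.600 ± 0.263 CPM in Ab-ASCs and 0.363 ± 0.161 CPM in Sub-ASCs (SD, n = 3). In PVASCs the gene exceeded Sub-ASCs 5.15-fold (adjusted p = 3.90e-05) and Ab-ASCs 3.06-fold (adjusted p = 0.000918). For Ab-ASCs against Sub-ASCs, the log2 fold change was 0.75 (approximate 95% interval -0.06 to 1.56, adjusted p = 0.117). Without Ab-ASC replicate 1, both Cldn15 (log2 fold change 0.32, adjusted p = 0.0371) and Gpm6a (0.98, adjusted p = 0.0468) passed the threshold in this pair.

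**Figure D2:**
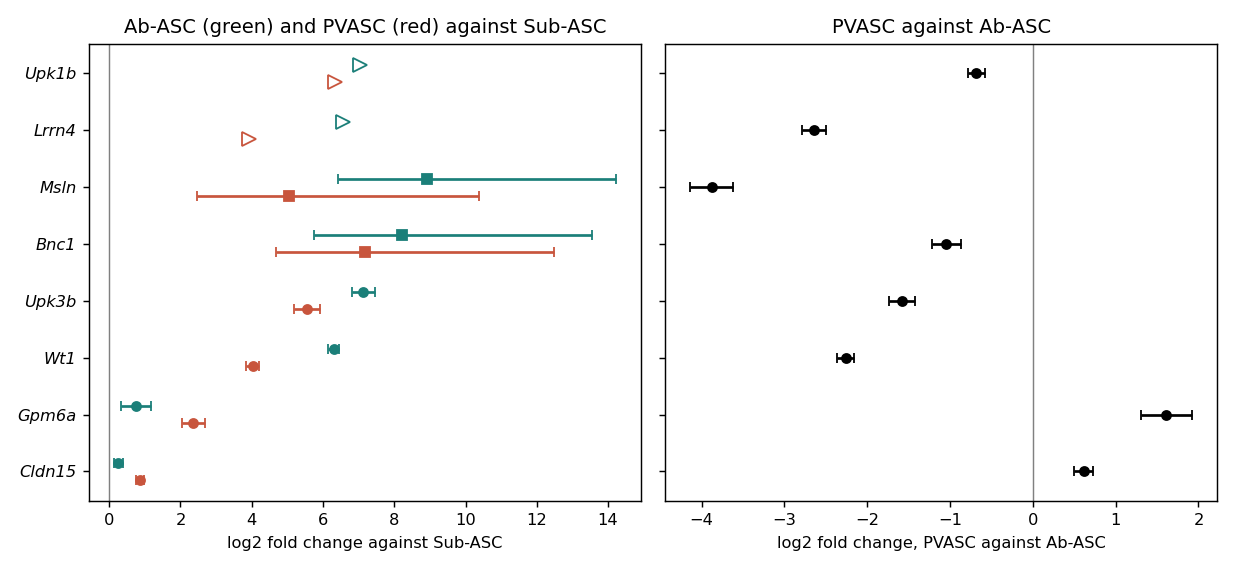
Log2 fold changes of the 8 genes tested, for Ab-ASC (green) and PVASC (red) against Sub-ASC on the left and for PVASC against Ab-ASC on the right. Circles are edgeR estimates with their standard error, squares are ratios of summed reads with exact 95% intervals (1 read in Sub-ASCs), and open triangles are lower bounds set by 3 reads per Sub-ASC library. On the right, 6 genes lie below 0, from -0.68 for Upk1b to -3.88 for Msln, while Gpm6a and Cldn15 lie above it.

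Compared per length, the order of the genes changed between groups. FPKM divides the reads by the gene length in the table and by all reads of the library. For Wt1 this listed length is 6195 bases, against 3090 in its longest transcript, and for Upk1b the lengths are 2089 and 1894. The rank of Wt1 and the size of its ratio to Upk1b below thus depend on the length used. In Ab-ASCs, Wt1 at 7.17 ± 0.615 FPKM (SD, n = 3) and Upk1b at 6.59 to 7.21 FPKM led and overlapped each other. Levels of Cldn15, Msln, Lrrn4 and Upk3b followed, from 2.93 down to 2.66 FPKM, each overlapping the next in this order. Bnc1 at 0.802 FPKM, Gpm6a at 0.175 FPKM and Muc16 came last, each apart from the next. In PVASCs, Cldn15 at 5.25 ± 0.338 FPKM and Upk1b at 5.10 ± 0.522 FPKM (SD, n = 3) led and overlapped. Wt1 was at 1.75 FPKM there, Upk3b at 1.04 and Gpm6a at 0.638, each apart from the next. Lrrn4 at 0.536 and Bnc1 at 0.454 FPKM overlapped, and Msln at 0.229 FPKM was above Muc16 alone. In Sub-ASCs, only Cldn15 (2.56 ± 0.318 FPKM, SD, n = 3) exceeded 0.2 FPKM. Even the leading genes were not among the most abundant. Wt1 exceeded 78.0% of the genes with any read in Ab-ASCs, and Cldn15 exceeded 73.8% of those in PVASCs.

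Since the fold differences between PVASCs and Ab-ASCs spanned a wide range, 5 of the genes were also compared with Upk1b inside each library. To remove differences in library scale, each was divided by Upk1b in the same library, per length. Upk1b was chosen as the divisor after its values had been seen. The ratio of Msln to Upk1b was 0.454, 0.462 and 0.322 in the Ab-ASC libraries and 0.0272, 0.0656 and 0.0447 in the PVASC libraries. For Wt1, the mean ratio was 1.03 ± 0.0889 in Ab-ASCs and 0.346 ± 0.0395 in PVASCs (SD, n = 3). Corresponding means were 0.412 and 0.106 for Lrrn4 and 0.379 and 0.204 for Upk3b. These 4 ratios did not overlap between the groups, while that of Bnc1 to Upk1b did (0.115 ± 0.0236 and 0.0901 ± 0.0127, SD, n = 3). As Upk1b had the smallest difference of the 6 genes, its choice as divisor sets the direction of the mean ratios, which are given as a description without a test. With n = 3 per group, an exact permutation test cannot give a p-value below 0.1, so the lack of overlap carries little weight.

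**Figure D3:**
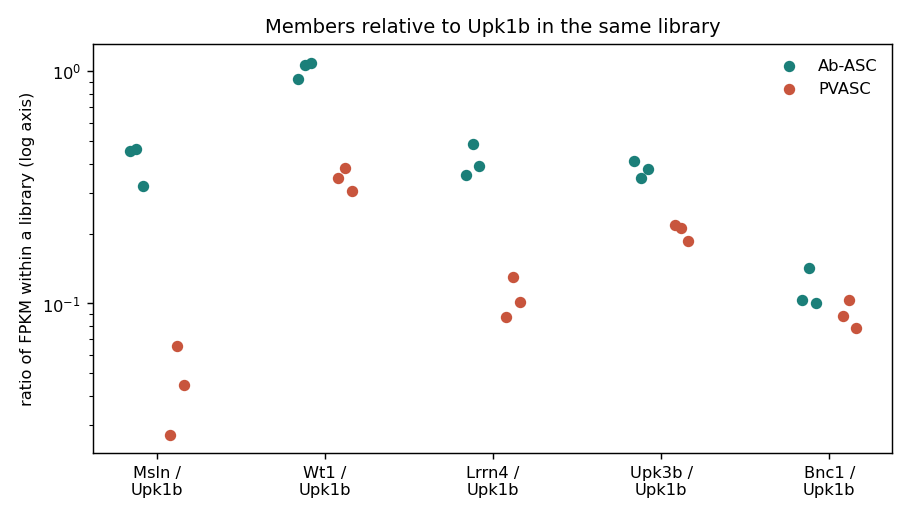
Ratio of FPKM of 5 genes to that of Upk1b within each library (vertical axis, logarithmic) in Ab-ASC (green) and PVASC (red). Each point is a library. The ratios of Msln, Wt1, Lrrn4 and Upk3b are higher in every Ab-ASC library than in every PVASC library, with the widest gap for Msln, and those of Bnc1 overlap.

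Other genes known from mesothelium did not all follow the same order. Those with few reads in Sub-ASCs, such as Pkhd1l1, Cdh1, Krt7 and Krt8 here and Areg and Cldn4 in the lists that follow, passed the filter through groups where they were high, so the counts describe the lists and support nothing further. In a list of 16, of which 15 were tested, 13 were higher and 2 lower in Ab-ASCs than in Sub-ASCs (37.0% and 38.3% of all genes), with a median log2 fold change of 1.98 against -0.03 over all genes. In PVASCs against Sub-ASCs, 6 were higher, 6 lower and 3 not called (34.7% and 35.7% of all genes were higher and lower), with a median of -0.26 against -0.01 over all genes. The 6 lower became 5 without Sub-ASC replicate 2, Sub-ASC replicate 3 or PVASC replicate 1 and in a fit of the compared groups alone, and the weakest of them was Cdh1 (adjusted p = 0.0261). Between PVASCs and Ab-ASCs, 11 were lower and 3 higher in PVASCs (32.1% and 24.7% of all genes), with a median of -0.92 against -0.06 over all genes. The 11 lower became 9 with DESeq2, with a fit of the compared groups alone, or without Ab-ASC replicate 1 or PVASC replicate 3, and 8 without Ab-ASC replicate 3, PVASC replicate 1 or PVASC replicate 2, and the weakest of these calls were Nkain4, Pkhd1l1 and Tgm1 (adjusted p = 0.0308, 0.037 and 0.038). The medians of the 8 tested marker genes were 6.79 for Ab-ASCs and 4.54 for PVASCs against Sub-ASCs with Upk1b, Lrrn4, Msln and Bnc1 at their bounds or read ratios, and 7.46 and 5.08 as fitted.

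Aldh1a2, which makes retinoic acid, was at 621 ± 38.5 CPM in Ab-ASCs against 188 ± 3.49 CPM in PVASCs and 20.7 ± 0.276 CPM in Sub-ASCs (SD, n = 3). This order was that of Wt1. Keratins divided into 2 patterns. Krt8 had 379, 383 and 424 reads in Ab-ASCs, 7, 6 and 12 in PVASCs and 17, 2 and 9 in Sub-ASCs, and Krt7 had 118 to 120, 7 to 10 and 4 to 10 reads in the same groups. For Krt18, a usual partner of Krt8, levels were 13.4 ± 1.45 CPM in Ab-ASCs and 8.40 ± 0.795 CPM in PVASCs against 0.676 ± 0.572 CPM in Sub-ASCs (SD, n = 3). Krt19 was highest in PVASCs, at 14.7 ± 0.367 CPM against 4.39 ± 0.397 CPM in Ab-ASCs and 1.12 ± 0.279 CPM in Sub-ASCs (SD, n = 3). Both Krt18 and Krt19 were higher than in Sub-ASCs in the other groups (adjusted p at most 3.80e-07).

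E-cadherin (Cdh1), which joins epithelial cells, had 31, 43 and 29 reads in Ab-ASCs but 0, 1 and 1 in PVASCs and 1, 4 and 5 in Sub-ASCs. The protease inhibitor gene Slpi was at 47.8 ± 6.02 CPM in Ab-ASCs, 21.2 ± 3.12 CPM in Sub-ASCs and 1.01 ± 0.135 CPM in PVASCs (SD, n = 3). Pkhd1l1, another gene of the list, had 27, 40 and 56 reads in Ab-ASCs, 38, 31 and 36 in PVASCs and 3, 0 and 3 in Sub-ASCs. Against the others, the transglutaminase gene Tgm1 and the fibulin gene Efemp1 were lower than in Sub-ASCs in both groups, with log2 fold changes of -3.70 and -2.09 in Ab-ASCs and of -4.30 and -0.84 in PVASCs. Calb2, which encodes calretinin, had 2 reads in Sub-ASCs and none elsewhere. Krt7, Krt19, Cdh1, Slpi and Calb2 were singled out after their values had been seen.

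**Figure D4:**
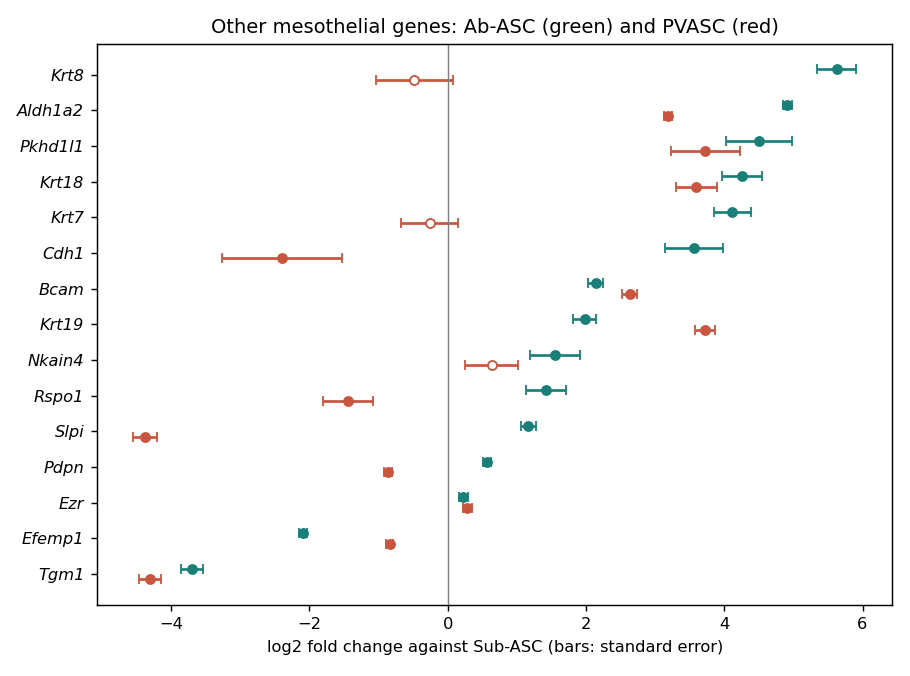
Log2 fold change against Sub-ASC (horizontal axis) of 15 other mesothelial genes in Ab-ASC (green) and PVASC (red). Points are edgeR estimates with standard errors, and open points did not pass the threshold of 0.05. Ab-ASC points of 13 genes lie above 0, whereas PVASC points are split, and those of Cdh1, Slpi, Rspo1 and Pdpn passed the threshold on the opposite side from Ab-ASC, Cdh1 with an adjusted p = 0.0261.

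Genes linked to Wt1, as reported targets or as binding partners of its protein, were counted in a list of 12. Of the 9 tested, 8 were higher and 1 lower in Ab-ASCs than in Sub-ASCs, where 37.0% and 38.3% of all genes were. In PVASCs 6 rose and 3 fell, beside 34.7% and 35.7% of all genes. With Ab-ASCs as the reference, 4 were higher and 4 lower in PVASCs (24.7% and 32.1% of all genes), and 2 higher and 4 lower without PVASC replicate 1. Wt1 itself was lower there. The growth factor gene Areg was at 12.5 ± 0.262 CPM in PVASCs, 4.71 ± 0.175 CPM in Ab-ASCs and 0.161 ± 0.0100 CPM in Sub-ASCs (SD, n = 3). Pawr, whose product binds WT1, was also highest in PVASCs, at 30.7 CPM against 15.2 CPM in Ab-ASCs and 2.66 CPM in Sub-ASCs. Spry1, which limits growth factor signalling, was 1.17-fold higher in PVASCs than in Ab-ASCs (32.3 and 27.6 CPM, adjusted p = 0.0135) and was at 6.37 CPM in Sub-ASCs. Wtap, a WT1-binding protein gene, was lower in both groups than in Sub-ASCs, with log2 fold changes of -0.48 in Ab-ASCs and -0.27 in PVASCs. The podocyte target Nphs1 had no read in any library.

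Relatives of the marker genes were examined because reads of similar genes could be confused. Of 26 relatives 14 were tested, and 5 were higher and 7 lower in Ab-ASCs than in Sub-ASCs, 3 higher and 7 lower in PVASCs than in Sub-ASCs, and 2 higher and 7 lower in PVASCs than in Ab-ASCs. The shares over all genes in these pairs were 37.0% and 38.3%, 34.7% and 35.7%, and 24.7% and 32.1%. The 7 lower in PVASCs than in Sub-ASCs became 6 with the replicate block or a fit of the compared groups alone. They also became 6 without Sub-ASC or PVASC replicate 1 or 2. The 7 lower than in Ab-ASCs became 6 with a fit of the compared groups alone or without Ab-ASC or PVASC replicate 1. Without a filter, both counts were 8. The uroplakin genes Upk2 and Upk3a, which the bladder lining expresses, had 1 and 0 reads over all libraries, and Upk1a had 5 to 13 reads per library in every group. Mslnl, a relative that lies beside Msln on chromosome 17, had 3, 11 and 9 reads over the Ab-ASC, PVASC and Sub-ASC libraries. Bnc2 was highest in Sub-ASCs at 42.0 ± 2.42 CPM (SD, n = 3), as was Gpm6b at 173 ± 10.3 CPM (SD, n = 3). Among claudins, Cldn4 had 35 to 49 reads per Ab-ASC library and 2 to 8 in all others, Cldn5 was at 9.01 CPM in Sub-ASCs against 0.928 and 0.797 CPM in Ab-ASCs and PVASCs, and Cldn11 had 43 reads in Sub-ASCs, 0 in Ab-ASCs and 3 in PVASCs. Cldn12, Lrrn2, Lrrn3 and, at an adjusted p = 0.0392, Cldn10 were the other relatives higher in Ab-ASCs than in Sub-ASCs, and the 5 higher fell to 4 with DESeq2, with the replicate block and without any single Sub-ASC or Ab-ASC library or PVASC replicate 2. Genes that overlap the 9 marker genes on the chromosome had at most 3 reads in any group.

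Markers of other cells also differed between the groups. Over the 9 libraries, the summed level of the 9 mesothelial genes was 5.67 to 7.43 CPM in Sub-ASCs, 100 to 106 CPM in Ab-ASCs and 39.1 to 39.8 CPM in PVASCs. Stromal genes summed to 32510 to 33100 CPM in Sub-ASCs, 12190 to 12610 CPM in Ab-ASCs and 8044 to 8375 CPM in PVASCs, and 10 of 12 were lower than in Sub-ASCs in each of the other groups (38.3% of all genes in Ab-ASCs, 35.7% in PVASCs). All 10 proliferation genes were higher in Ab-ASCs and in PVASCs than in Sub-ASCs (37.0% and 34.7% of all genes), with sums of 808 to 900, 784 to 798 and 71.7 to 78.7 CPM. Endothelial genes summed to 764 to 768 CPM in PVASCs, 176 to 191 CPM in Sub-ASCs and 63.7 to 66.2 CPM in Ab-ASCs, and all 6 were higher in PVASCs than in Ab-ASCs (24.7% of all genes). Against Sub-ASCs, 5 of them were higher in PVASCs (34.7% of all genes, with 35.7% lower) and Tek, which encodes the angiopoietin receptor, was lower (14.8 against 46.0 CPM, log2 fold change -1.63, adjusted p = 1.20e-09). The 7 neuronal and glial genes reached 18.6 to 21.1 CPM in PVASCs, 9.65 to 12.2 CPM in Sub-ASCs and 4.18 to 5.44 CPM in Ab-ASCs. Sox10, a neural crest and glial factor with 370, 384 and 360 reads in PVASCs and at most 23 in any other library, made up most of the PVASC sum at 11.9 ± 0.946 CPM (SD, n = 3). The myelin gene Mbp of the same list went the other way, at 3.13 CPM in PVASCs against 9.29 CPM in Sub-ASCs (log2 fold change -1.57, adjusted p = 9.56e-07). The part of these other cell types and of proliferation in the mesothelial values was not tested.

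**Figure D5:**
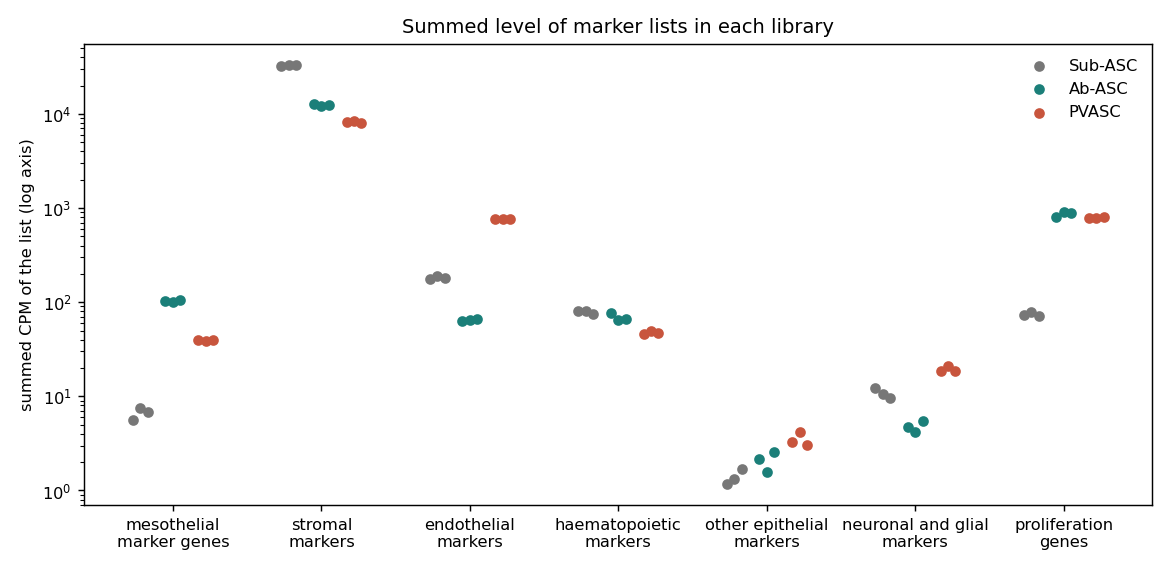
Summed CPM of each marker list (vertical axis, logarithmic) in every Sub-ASC (grey), Ab-ASC (green) and PVASC (red) library. The 3 libraries of a group lie close together in most lists. Mesothelial marker genes are highest in Ab-ASCs, stromal markers in Sub-ASCs and endothelial markers in PVASCs, and proliferation genes are lowest in Sub-ASCs.

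Blood cell genes summed to 75.4 to 80.2 CPM in Sub-ASCs, 64.2 to 77.4 CPM in Ab-ASCs and 45.7 to 48.9 CPM in PVASCs. Of the 5 tested, 4 were lower and 1 higher than in Sub-ASCs in each of the other groups, where 38.3% and 37.0% of all genes were lower and higher in Ab-ASCs and 35.7% and 34.7% in PVASCs. Markers of other epithelia summed to at most 4.20 CPM in any library, and 5 of the 7 were not tested. Most of the PVASC sum came from Krt20, a keratin of gut and bladder lining, with 300 reads there, 47 in Ab-ASCs and 9 in Sub-ASCs (log2 fold change of PVASCs 4.69 against Sub-ASCs and 2.11 against Ab-ASCs). Epcam, an epithelial adhesion gene, had 14, 9 and 16 reads in Ab-ASCs and at most 8 in any other library. Among the defining markers of these lists, Cd3e was at 0 in Ab-ASCs and PVASCs, Snap25 and Syt1 in Sub-ASCs and Rbfox3 in Ab-ASCs. Krt5 was at 0 in Sub-ASCs and PVASCs, Pax8 at 0 in Sub-ASCs and Trp63 at 0 in Ab-ASCs. The surface markers by which ASCs are commonly known were present in all groups but at unequal levels. Ly6a (Sca1) was at 2049 CPM in Sub-ASCs, 21.8 CPM in Ab-ASCs and 111 CPM in PVASCs, Thy1 (CD90) at 332, 231 and 883 CPM, and Eng (CD105) at 108, 145 and 328 CPM. The blood cell gene Ptprc (CD45) was at 8.94, 1.41 and 2.82 CPM in the same order. Pecam1 (CD31), an endothelial gene, was at 45.3, 12.5 and 180 CPM, so its transcript was not absent from any group. By flow cytometry the study reported PVASCs as negative for both of these proteins. RNA in bulk libraries is a different measure from protein on the cell surface.

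Genes outside the list were ranked by the likeness of their pattern to the mean standardized log2 CPM of the 8 tested marker genes over the 9 libraries. Dock5 (Pearson's r = 0.9992), Mad2l1 (0.9991), Ccnyl1 (0.9991), Hspd1 (0.9990) and Nap1l1 (0.9988) were closest. Dock5, for example, was at 131 ± 9.85 CPM in Ab-ASCs, 97.0 ± 1.49 CPM in PVASCs and 17.3 ± 0.801 CPM in Sub-ASCs (SD, n = 3). The mean pattern was itself most like Upk1b (r = 0.995) and Bnc1 (0.990) and least like Cldn15 (0.602) and Gpm6a (0.547). As the 9 libraries form 3 groups, these correlations describe the order and spacing of the groups and little else.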

How the data were processed

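For each of the 9 libraries, a table deposited by the authors gives raw read counts per gene, beside gene length and position. RNA was extracted with Trizol and libraries were made with the NEBNext Ultra kit. CASAVA 1.8, Bowtie 0.12.2 and featureCounts 1.5.0-p3 and the builds mm8 and mm10 are named by the submitters' processing notes, without their role. The strand setting and annotation release are not given in the sources used here. For 98.3% of the genes the listed span is that of GENCODE M21 on GRCm38, which holds for 8 of the 9 marker genes (not Msln).

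Groups were taken from the sample titles. Counts were filtered with filterByExpr, normalized by TMM and tested in 1 fit of all libraries without covariates by the quasi-likelihood test of edgeR 4.0.16 in R 4.3.3, with Benjamini-Hochberg adjustment over the 16526 genes kept and a threshold of 0.05. The procedure was tested on simulated data. The standard error is the log2 fold change divided by the square root of F, and approximate 95% intervals of a log2 fold change are 1.96 standard errors wide on each side. As 1.96 belongs to the normal distribution, these intervals are narrower than the quasi-likelihood test would give. A count of 3 reads in each library was the floor for groups at 0. FPKM and log2(CPM + 0.5) were calculated from the counts with pandas 2.3.3 and numpy 2.4.6. No pairing was modelled, since the replicate numbers are not stated to mark a shared animal or day. Same-numbered libraries correlated between -0.112 and 0.195 in their deviations from the group means, which cannot settle whether they shared a source. DESeq2 1.42.0 and the other alternatives are given at the end.

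The 9 genes, the 9 further lists and the tests were chosen with earlier results of these data known. Named genes are the 9 genes, in each list the 4 with the largest absolute log2 fold change of Ab-ASCs against Sub-ASCs and those called against the majority (of the lists of other cell types, only genes that bear on the marker genes are named), 5 ASC surface markers and the 5 genes of most similar pattern. Others are identified as singled out later, including Upk2, Upk3a, Upk1a, Mslnl, Bnc2, Gpm6b, Nphs1, Sox10, Epcam, Krt5, Pax8, Trp63, Cd3e, Snap25, Syt1, Rbfox3, Mbp and Nkain4. The values of 1 gene that this rule names are not reported here.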

Additional observations from a re-analysis of the deposited data

How the results depend on the processing

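Alternatives were DESeq2, RLE size factors, no filter, at least 10 reads in 3 libraries, a fit of the compared groups alone, a replicate block, a minimum fold (a log2 change of 1 in either direction), and the omission of each library in turn. Over these 16 settings, 545 of 551 recomputed values kept their direction and side of the threshold, or stayed within 1.5 times the reported count, and none reversed. With the minimum fold, the other mesothelial genes called between PVASCs and Ab-ASCs fell from 14 to 9, and Wt1-linked genes from 9 to 4 (PVASCs against Sub-ASCs), from 9 to 5 (Ab-ASCs against Sub-ASCs) and from 8 to 5 (PVASCs against Ab-ASCs), by construction. The marker genes called fell from 8 to 7 between PVASCs and Sub-ASCs, without Cldn15. Between PVASCs and Ab-ASCs they fell from 8 to 6, without Cldn15 and Upk1b. Leaving out a library moved the Ab-ASC against Sub-ASC log2 fold change of Cldn15 between 0.16 and 0.32 and that of Gpm6a between 0.36 and 1.10. The marker genes called in this pair then numbered 6 to 8, and 8 in each of the other pairs. With the replicate block, 8, 6 and 8 marker genes were called between PVASCs and Sub-ASCs, Ab-ASCs and Sub-ASCs, and PVASCs and Ab-ASCs, as without it, and the block changed none of their calls. Without a filter, Muc16 was tested and not called (adjusted p = 0.101, 0.0549 and 0.849 in the same order of pairs). Levels of at most 3 reads per library, the case for 6 of the 9 genes in Sub-ASCs, are set by depth.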
